A study of Mus musculus with 6 samples.

Results

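Primary granule genes encode the contents of the first granules that a neutrophil precursor makes. Those described here are Mpo, Elane, Prtn3, Ctsg, Ms4a3, Nkg7, Serpinb1a and Cst7, which were listed by name as granule genes of the progenitor stage and found in the count table by gene symbol. All 8 were present, each under a single identifier, among 54838 genes in the table, and all 8 were among the 11092 genes with enough counts to test.

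RNA sequencing was performed on I1DN cells, a murine acute myeloid leukemia (AML) on the C57BL/6 background that carries the alleles IDH1R132H, DNMT3AR882H and NrasG12D. Cells of both groups shared this genotype and were grown in sub-lethally irradiated Ptprca recipients. The vehicle group held 3 mice and the AG636 group 3 mice that received AG636, an inhibitor of the pyrimidine synthesis enzyme dihydroorotate dehydrogenase (DHODH), by mouth at 100 mg/kg b.i.d. The mutant genes were introduced as constructs into fetal liver stem and progenitor cells, so the model is an engineered leukemia, and the irradiated hosts keep blood cells of their own. Leukemia cells were sorted as cKit-positive and CD11b-negative or as cKit-high and CD11b-low, and the sources used here differ on which. The cells came from bone marrow and spleen without a record of which organ gave each sample. Treatment lasted 1 day or 4 days, and the sources used here differ on which. The comparison asks how the level of each granule gene differed between AG636-treated and vehicle-treated leukemia cells of this immature gate.

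Primary (azurophil) granules are packed during the promyelocyte stage, before the secondary and tertiary granules that later precursors fill with lactoferrin and gelatinase. Their cargo includes myeloperoxidase, which turns hydrogen peroxide and chloride into hypochlorous acid, and a family of serine proteases that are made as inactive proforms, trimmed by the cysteine protease cathepsin C and stored on a proteoglycan core. Transcription of these genes peaks in granulocyte-monocyte progenitors and promyelocytes and is then shut off, so that mature neutrophils carry the proteins but little of the mRNA. In AML, myeloperoxidase in blasts is a long-used marker of the myeloid lineage.

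The libraries held between 4634963 and 7906589 counts, so 3 counts correspond to between 0.392 and 0.637 CPM, the usual unit in which a gene's reads are scaled to the size of its library, and the least abundant of the 8 genes, Cst7, still had 1322 counts in all. This floor covers counting error only. Among the genes of the sort gate, Kit stood at 38.6 ± 6.03 CPM (SD, n = 3) with vehicle and 42.8 ± 4.796 CPM (n = 3) with AG636. Itgam, which encodes CD11b, was detected in every sample, at 12.1, 18.3 and 27.0 CPM with vehicle and at 60.1, 31.3 and 41.2 CPM with AG636. It rose by 1.21 on the log2 scale (SE 0.31, adjusted p = 0.0219; here and throughout, p-values adjusted by the Benjamini-Hochberg method come from the quasi-likelihood test in edgeR). Across all genes tested, 2368 changed, 1222 of them lower and 1146 higher with AG636, at an adjusted p under 0.05. That is 21.3% of the genes tested, 11.0% lower and 10.3% higher.

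None of the 8 primary granule genes was among them. Of the 8 genes, 0 were called lower and 0 higher by edgeR's quasi-likelihood test, against the 21.3% of all genes tested that were called. Serpinb1a alone had an unadjusted p under 0.05 (0.0195), and limma-voom likewise called 0 with 1 at an unadjusted p under 0.05, while DESeq2 called 1, Serpinb1a, with 2 at an unadjusted p under 0.05. The range of the vehicle mice overlapped the range of the AG636 mice for each of the 8 genes, whereas 41.1% of all genes tested had groups that did not overlap. The mean level was higher with AG636 for 7 genes and lower for 1, Mpo, and the median log2 difference of the 8 genes was 0.37, beside 0.03 over all genes tested. The absence of calls turned on single mice: without AG636 mouse 2, 3 genes were called higher, Elane, Nkg7 and Serpinb1a, and without vehicle mouse 3, 1 gene was, Serpinb1a. Without any filter on low counts, edgeR called Mpo lower and 4 genes higher, namely Elane, Prtn3, Nkg7 and Serpinb1a. In bulk RNA of sorted cells, fewer cells that express a gene and less mRNA per cell cannot be told apart.

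**Figure D1:**
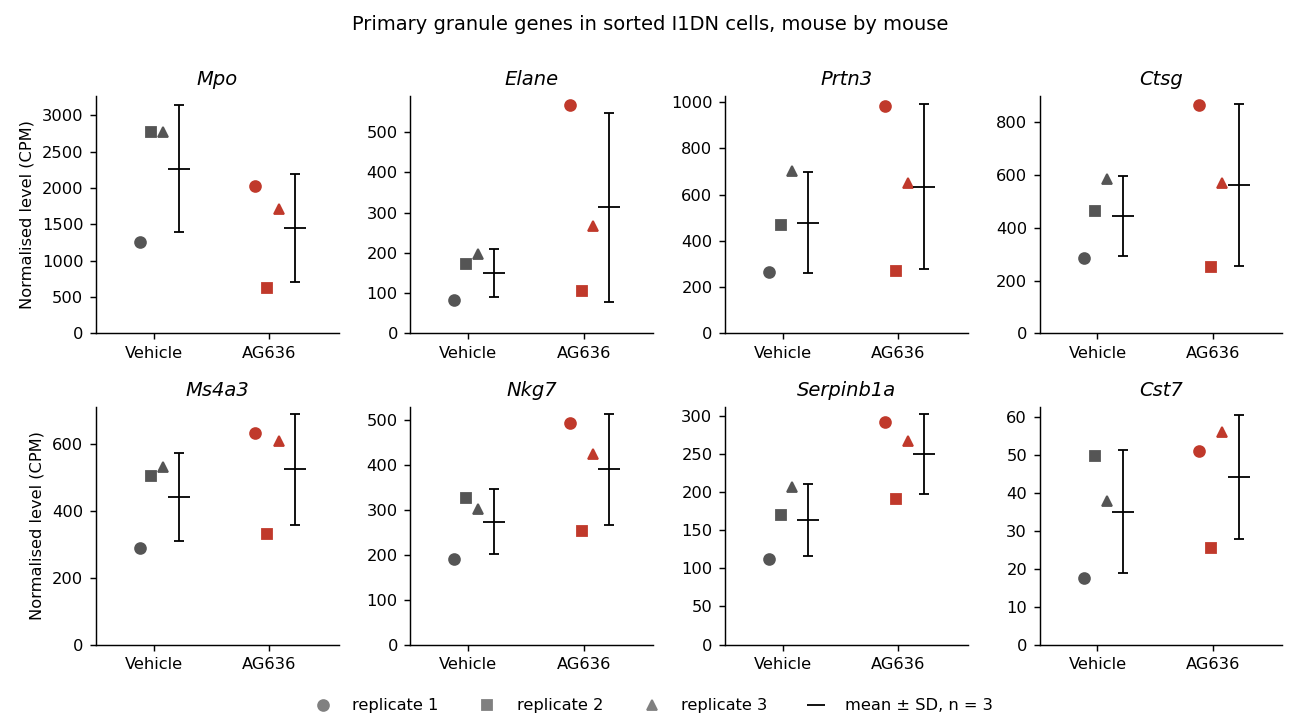
Normalised level of each primary granule gene (vertical axis, CPM, from 0) in the 3 vehicle and 3 AG636 mice, with the replicate number given by the point's shape and the mean ± SD (n = 3) drawn beside the points. For each of the 8 genes the points of the groups overlap, vehicle mouse 1 and AG636 mouse 2 are the lowest of their groups, and Mpo is the only gene with a lower mean in AG636 (1448 against 2265 CPM).

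Mpo encodes myeloperoxidase, the peroxidase of the granule. The gene lies on chromosome 11 (chr11:87793581-87804413, plus strand, mm10) and has 15 merged exon blocks in the count table. Mpo was measured at 1252, 2772 and 2771 CPM in vehicle mice 1 to 3 and at 2022, 618 and 1704 CPM in AG636 mice 1 to 3. Vehicle mice 2 and 3 stood above every AG636 mouse, but vehicle mouse 1 lay below AG636 mice 1 and 3, so the groups overlapped. The mean was 2265 ± 878 CPM (SD, n = 3) with vehicle and 1448 ± 736 CPM (n = 3) with AG636, a log2 difference of -0.65 (SE 0.40, adjusted p = 0.266 by edgeR). Its unadjusted 95% interval ran from -1.53 to 0.24, and the exact two-sided permutation test of 3 against 3 gave p = 0.3, where 0.1 is the smallest p this design allows. An annotated gene on the opposite strand, Gm11505, overlaps exons of Mpo but had 0 counts.

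Elane, Prtn3 and Ctsg encode neutrophil elastase, proteinase 3 and cathepsin G, the serine proteases that the granule stores as active enzymes. Elane and Prtn3 are neighbours on chromosome 10, with 3072 bases from the end of Prtn3 (chr10:79874476-79883174, plus strand, 6 exon blocks) to the start of Elane (chr10:79886247-79888215, plus strand, 5 exon blocks), and Ctsg lies on chromosome 14 (chr14:56099881-56102574, minus strand, 5 exon blocks). Elane was measured at 83.6, 171 and 197 CPM with vehicle and at 567, 105 and 267 CPM with AG636. AG636 mice 1 and 3 exceeded all vehicle mice, and AG636 mouse 2 fell between vehicle mice 1 and 2. The means were 151 ± 59.5 CPM and 313 ± 234 CPM (SD, n = 3 each), a log2 difference of 1.05 (SE 0.50, adjusted p = 0.152 by edgeR), the largest of the 8 in size. Its unadjusted 95% interval, -0.05 to 2.16, still reached 0, and the exact permutation p was 0.3. The single highest value, AG636 mouse 1, was 5.40 times the lowest of its group. Without that mouse the log2 difference was 0.30.

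Prtn3 was measured at 265, 468 and 703 CPM with vehicle and at 982, 267 and 651 CPM with AG636. Its means, 478 ± 219 and 633 ± 358 CPM (n = 3 each), differed by 0.41 on the log2 scale (SE 0.42, adjusted p = 0.521 by edgeR, exact permutation p = 0.6). AG636 mouse 2 was level with vehicle mouse 1 at the bottom of both ranges, and AG636 mouse 1 was the highest of the 6. Ctsg was measured at 285, 463 and 586 CPM with vehicle and at 867, 252 and 569 CPM with AG636, and here AG636 mouse 2 was the lowest of the 6 mice. The means, 445 ± 151 and 562 ± 308 CPM (n = 3 each), differed by 0.34 (SE 0.38, adjusted p = 0.548 by edgeR, exact permutation p = 0.7). For both genes the direction rested on AG636 mouse 1: without it the log2 difference was -0.061 for Prtn3 and -0.12 for Ctsg. The exons of Prtn3 overlap those of Plppr3 on the opposite strand over 159 bases, and the use of strand in counting is not given in the sources used here, but Plppr3 had 1237 counts against 17795 for Prtn3.

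Ms4a3 and Nkg7 encode membrane proteins. Ms4a3 is a membrane-spanning protein of the CD20-like family whose expression marks granulocyte-monocyte progenitors, and Nkg7 is a granule membrane protein known best from cytotoxic lymphocytes. Ms4a3 (chr19:11629496-11640851, minus strand, 7 exon blocks) was measured at 289, 504 and 532 CPM with vehicle and at 633, 332 and 608 CPM with AG636. Here the AG636 values fell on either side of vehicle mice 2 and 3, and the means of 442 ± 133 and 524 ± 167 CPM (n = 3 each) differed by less than either SD. The log2 difference was 0.25 (SE 0.27, adjusted p = 0.534 by edgeR, exact permutation p = 0.5). Nkg7 (chr7:43437073-43438249, plus strand, 4 exon blocks) was measured at 191, 326 and 302 CPM with vehicle and at 493, 253 and 425 CPM with AG636. AG636 mice 1 and 3 were above all vehicle mice and AG636 mouse 2 was below vehicle mice 2 and 3. The means were 273 ± 72.2 and 390 ± 123 CPM (n = 3 each), a log2 difference of 0.51 (SE 0.25, adjusted p = 0.166 by edgeR, exact permutation p = 0.3), and without AG636 mouse 2 it was 0.74 with an adjusted p of 0.0313.

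Serpinb1a and Cst7 encode inhibitors of the granule's proteases. The serpin made by Serpinb1a inactivates elastase, proteinase 3 and cathepsin G in the cytosol, and cystatin F, made by Cst7, inhibits cysteine cathepsins inside the endolysosomal system, cathepsin C among them. Serpinb1a (chr13:32842092-32851185, minus strand, 8 exon blocks) was measured at 113, 170 and 207 CPM with vehicle and at 292, 191 and 267 CPM with AG636. Only AG636 mouse 2 and vehicle mouse 3 were out of order, with the other AG636 mice above every vehicle mouse. The means were 163 ± 47.5 and 249.8 ± 52.8 CPM (n = 3 each), a 1.53-fold difference and a log2 difference of 0.61 (SE 0.22, adjusted p = 0.0722 by edgeR, exact permutation p = 0.2). Its unadjusted 95% interval, 0.12 to 1.11, was the only one of the 8 that did not include 0. The paralogs Serpinb1b and Serpinb1c had 0 counts in all 6 samples, but how reads that match more than 1 gene were counted is not given in the sources used here. Cst7 (chr2:150570415-150578944, plus strand, 4 exon blocks) was measured at 17.7, 49.7 and 37.8 CPM with vehicle and at 51.2, 25.6 and 56.1 CPM with AG636. The AG636 values lay above and below those of vehicle mice 2 and 3. Its means were 35.1 ± 16.2 and 44.3 ± 16.4 CPM (n = 3 each), a log2 difference of 0.33 (SE 0.36, adjusted p = 0.543 by edgeR, exact permutation p = 0.5), and it was -0.0034 without vehicle mouse 1.

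Inside each group the 8 genes shared the same lowest mouse, but not the whole order. Vehicle mouse 2 was the highest vehicle mouse for Mpo, Nkg7 and Cst7, and vehicle mouse 3 for the rest. Vehicle mouse 1 was the lowest vehicle mouse for 8 of 8 genes, AG636 mouse 2 the lowest AG636 mouse for 8 of 8, and AG636 mouse 1 the highest for 7 of 8, with Cst7 as the exception, where it was AG636 mouse 3. Over all genes tested, vehicle mouse 1 was the lowest of its group for 36.4% and AG636 mouse 2 for 35.3%, and both held for 18.6%. Of the 13 other lists described further on, the summed level was lowest in vehicle mouse 1 for 12 and in AG636 mouse 2 for 8, so these dips were not particular to the 8 genes. The highest vehicle mouse exceeded the lowest by 1.71-fold (Nkg7) to 2.82-fold (Cst7), and the highest AG636 mouse the lowest by 1.53-fold (Serpinb1a) to 5.40-fold (Elane). The within-group SD of log2 CPM was 0.39 for Serpinb1a, the steadiest of the 8, and 0.98 for Elane, the most variable. Its median over all genes tested was 0.23, and each of the 8 genes varied more than 79.9% of the genes tested or more. For Elane, 99.1% of the genes tested had a smaller spread.

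Summed over the 8 genes, the level was 2496, 4926 and 5336 CPM with vehicle and 5907, 2043 and 4547 CPM with AG636. Vehicle mouse 1 and AG636 mouse 2 were thus alike in having about the same low sum, and the remaining 4 mice lay close together whatever their treatment. As a share of all counts, the 8 genes made up 0.237%, 0.476% and 0.525% with vehicle and 0.600%, 0.210% and 0.473% with AG636. Measured per gene against the mean profile of the 8, Ctsg lay nearest, with a root mean square difference of 0.14 on the log2 scale over the 6 samples, and Mpo lay farthest, at 0.53.

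**Figure D2:**
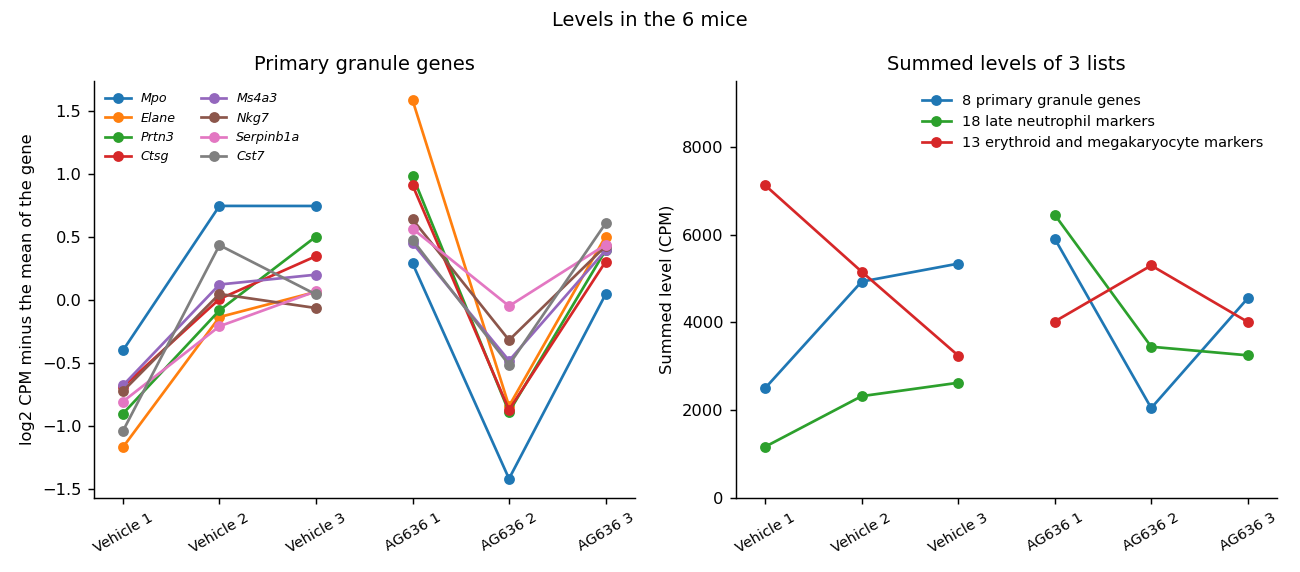
Left, log2 CPM of each primary granule gene minus that gene's mean over the 6 mice (vertical axis, log2), with mice in columns and lines joining the mice of one group only to guide the eye; the dips at vehicle mouse 1 and AG636 mouse 2 are seen for all 8 genes. Right, summed level in CPM of the 8 primary granule genes, 18 late neutrophil markers and 13 erythroid and megakaryocyte markers; the erythroid and megakaryocyte sum is highest of its group in vehicle mouse 1 (7124 CPM) and AG636 mouse 2 (5294 CPM), the mice with the lowest primary granule sums.

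The balance within the set was read from ratios of reads within each sample, which were chosen after the values had been seen. Some of these ratios differed between the groups without overlap, as did 39.4% of the ratios of all pairs of genes tested. For every read of Elane there were 14.97, 16.2 and 14.1 reads of Mpo with vehicle and 3.57, 5.89 and 6.38 with AG636, or 15.1 ± 1.05 against 5.28 ± 1.501 (SD, n = 3 each). The low vehicle mouse 1 and the low AG636 mouse 2 each had the ratio of their own group.

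The ratio of Mpo to each of the other 7 genes was lower in all AG636 mice than in any vehicle mouse. Per read of Prtn3, there were 4.72, 5.92 and 3.94 reads of Mpo with vehicle and 2.06, 2.31 and 2.62 with AG636, and per read of Ctsg 4.39, 5.99 and 4.73 against 2.33, 2.46 and 2.997. Per read of Ms4a3 the vehicle mean of 5.01 ± 0.61 compared with 2.62 ± 0.68, and per read of Nkg7 8.07 ± 1.36 compared with 3.52 ± 0.94 (n = 3 each). Against the inhibitors, the means were 13.6 ± 2.58 and 5.52 ± 1.99 reads of Mpo per read of Serpinb1a and 66.7 ± 9.50 and 31.4 ± 7.71 per read of Cst7 (n = 3 each). These 7 ratios all share Mpo and are not separate results, and Mpo over any gene tested was lower without overlap for 17.5% of 11091 genes and higher without overlap for 0.0541%. Mpo supplied 50.1%, 56.3% and 51.9% of the summed level of the 8 genes with vehicle and 34.2%, 30.3% and 37.5% with AG636. The smallest exact permutation p for any such ratio is 0.1, so none could pass a threshold of 0.05.

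**Figure D3:**
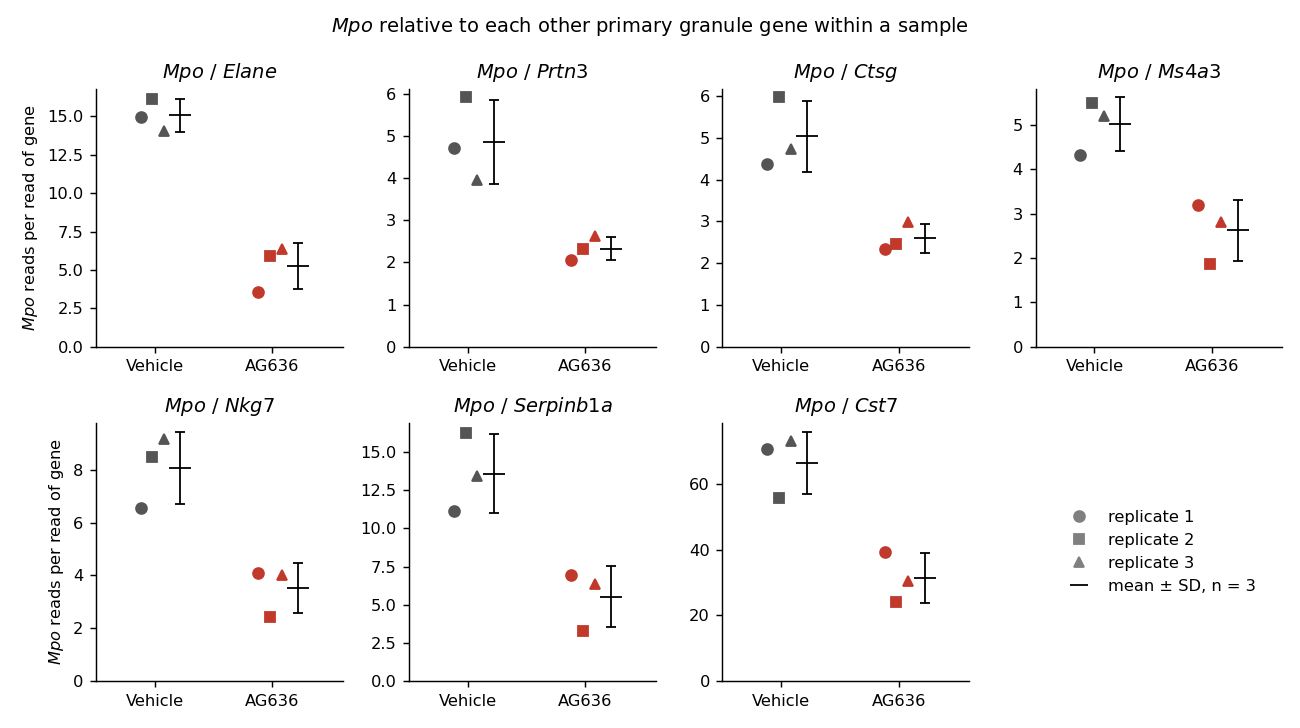
Reads of Mpo per read of each of the other 7 primary granule genes (vertical axes, a ratio from 0) in the 3 vehicle and 3 AG636 mice, with replicate shapes and mean ± SD (n = 3). In each panel all AG636 points lie below all vehicle points, for example 3.57 to 6.38 against 14.1 to 16.2 for Mpo over Elane.

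Among the 21 pairs that do not involve Mpo, 17 ratios overlapped between the groups and 4 did not, beside 39.4% of all pairs of genes tested without overlap, so separated ratios were no more common here. In 2 of the 4, Elane was set against a fellow protease: per read of Prtn3 there were 0.316, 0.366 and 0.280 reads of Elane with vehicle and 0.577, 0.392 and 0.411 with AG636. Per read of Ctsg the values were 0.293, 0.370 and 0.336 with vehicle and 0.654, 0.417 and 0.470 with AG636. Both ratios were higher in all AG636 mice than in any vehicle mouse. The other pairs without overlap were Ms4a3 over Nkg7 and Ms4a3 over Serpinb1a, both lower with AG636, at 1.51 to 1.76 against 1.29 to 1.43 and at 2.57 to 2.96 against 1.74 to 2.28. Prtn3 and Ctsg kept nearly the same ratio throughout, from 0.928 to 1.20 with vehicle and from 1.06 to 1.15 with AG636.

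The order of levels per kilobase of exon is given for description only. Libraries of this kind take one end of each transcript and need no correction for length, so the order in CPM is the one to read. With vehicle, the mean level per kilobase fell from Mpo (662 ± 256 CPM per kilobase) through Ctsg (431 ± 146), Nkg7 (299 ± 78.9), Prtn3 (276 ± 126), Ms4a3 (235 ± 70.6), Elane (153 ± 60.5) and Serpinb1a (70.9 ± 20.6) to Cst7 (35.6 ± 16.4). Each pair of neighbours in this order overlapped in range, whereas on the CPM scale, without division by length, Mpo over Prtn3 and Elane over Cst7 were apart. With AG636, Ctsg stood first at 544 ± 298 CPM per kilobase and Mpo after Nkg7 at 423 ± 215, and only Ms4a3 over Serpinb1a and Serpinb1a over Cst7 were apart. In CPM, Mpo had the highest mean of the 8 in both groups. Without the correction for length, Mpo ranked 35 among the 11092 genes tested with vehicle, Prtn3 322, Ctsg 357 and Ms4a3 361, while Elane ranked 1398 and Cst7 5147. Reads of Mpo, the longest of the 8, led the set in each of the 6 samples.

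Reference sequence around the transcription start is shown for the peroxidase and the serine proteases, because they encode the enzymes of the set, Mpo with the lowest and Elane with the highest log2 difference, and are known targets of the myeloid factors PU.1, C/EBP, MYB and RUNX1. RefSeq (GRCm38.p6) gave a window of 250 bases before to 50 bases after the start for 7 of the 8 genes, Serpinb1a being the one not matched. Capitals mark matches, on either strand, to GAGGAA (PU.1), TAACNG (MYB) or TGTGGT (RUNX). The windows are chr11:87793534-87793833 (plus strand) for Mpo, chr10:79886062-79886361 (plus) for Elane, chr10:79879417-79879716 (plus) for Prtn3 and chr14:56102525-56102824 (minus) for Ctsg, each written 5′ to 3′ along the gene. For Mpo, Elane and Prtn3 the RefSeq start lies inside the gene as the count table bounds it.
Mpo: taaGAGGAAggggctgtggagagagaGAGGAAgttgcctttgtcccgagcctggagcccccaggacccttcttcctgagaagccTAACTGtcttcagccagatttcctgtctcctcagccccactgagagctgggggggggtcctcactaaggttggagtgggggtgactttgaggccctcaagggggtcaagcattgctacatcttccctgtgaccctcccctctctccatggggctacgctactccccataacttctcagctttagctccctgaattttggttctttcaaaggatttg
Elane: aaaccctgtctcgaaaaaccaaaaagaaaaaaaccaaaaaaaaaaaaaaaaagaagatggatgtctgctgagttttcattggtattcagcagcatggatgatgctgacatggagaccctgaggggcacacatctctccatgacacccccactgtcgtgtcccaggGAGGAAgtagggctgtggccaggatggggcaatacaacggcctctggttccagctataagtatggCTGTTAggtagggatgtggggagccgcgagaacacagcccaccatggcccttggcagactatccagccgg
Prtn3: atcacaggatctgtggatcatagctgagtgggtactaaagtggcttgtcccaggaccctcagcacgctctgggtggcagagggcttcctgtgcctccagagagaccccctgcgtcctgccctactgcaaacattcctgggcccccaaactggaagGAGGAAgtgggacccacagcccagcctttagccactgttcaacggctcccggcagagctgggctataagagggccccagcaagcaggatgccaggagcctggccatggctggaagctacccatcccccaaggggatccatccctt
Ctsg: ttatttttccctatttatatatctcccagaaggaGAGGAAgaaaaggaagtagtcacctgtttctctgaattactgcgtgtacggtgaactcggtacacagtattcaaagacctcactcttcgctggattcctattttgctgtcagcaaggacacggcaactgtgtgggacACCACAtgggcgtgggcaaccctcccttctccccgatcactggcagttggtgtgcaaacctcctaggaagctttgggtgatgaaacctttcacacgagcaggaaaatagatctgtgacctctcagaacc
The PU.1 word occurred in the windows of Mpo, Elane, Prtn3, Ctsg and Ms4a3, 5 of 7, and in 28.12% of the 32544 promoters in the table. In Elane and Prtn3 it lay at similar distances from the start, at -85 to -80 and at -95 to -90, counting the start as 0. The MYB word was found in Mpo and Elane, 2 of 7, beside 23.37% of all promoters, and the RUNX word in Ctsg, Nkg7 and Cst7, 3 of 7, beside 16.68%. The C/EBP word TTGCAA and the GFI1 word AAATCA matched 0 of 7 windows, beside 6.18% and 13.88%, which says only that these letters are not in these windows. The words do not overlap each other in the windows shown, and a match of this kind is a description of the letters.

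Some other genes of primary granule content passed the test. Of 16 listed, 14 were tested, and 4 rose and 0 fell with AG636, 4 calls in 14 beside 21.3% of all genes tested. The median log2 difference of the list was 0.29, and without AG636 mouse 1 the calls were 2. Lyz2, which encodes lysozyme, was measured at 102, 167 and 173 CPM with vehicle and at 640, 208 and 628 CPM with AG636, and it rose by 1.74 (SE 0.37, adjusted p = 0.0124 by edgeR). Lyz2 has a close paralog, Lyz1, with 4 counts in all, so that reads shared between them are uncertain. Cd68, a lysosomal membrane protein, was measured at 19.4, 29.7 and 33.9 CPM with vehicle and at 91.5, 67.2 and 87.0 CPM with AG636, and it rose by 1.57 (SE 0.21, adjusted p = 0.00298). Both of these genes had higher values in all AG636 mice than in any vehicle mouse. Man2b1, which encodes a lysosomal mannosidase, rose too (log2 difference 0.79, SE 0.18, adjusted p = 0.0149). Cd63, the granule membrane tetraspanin and the most abundant gene of the list, differed by 0.25 (SE 0.23, adjusted p = 0.446). Prss57, a serine protease stored beside elastase, had the same order of mice as Elane inside each group, with 64.5, 93.3 and 139 CPM in vehicle mice 1 to 3 and 185, 58.4 and 135 CPM in AG636 mice 1 to 3 (0.35, SE 0.37, adjusted p = 0.523), and it is named here after its values were seen. Of a list of 14 further serine proteases, Prss57 and mostly those of mast cell, basophil and lymphocyte granules, 5 were tested and 0 were called by edgeR.

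Genes for the processing and storage of the proteases were read next. Of 23 listed genes 22 were found in the table and 21 tested, and 3 rose and 3 fell, 6 calls in 21 beside 21.3% of all genes tested, with a median log2 difference of -0.10. Srgn encodes serglycin, the proteoglycan core on which the proteases are packed. It was measured at 680, 665 and 1000.1 CPM with vehicle and at 1458, 1212 and 1229 CPM with AG636, and it rose by 0.73 (SE 0.16, adjusted p = 0.0141 by edgeR), without overlap. The secretion genes Stxbp2 (0.48, SE 0.13, adjusted p = 0.0284) and Rab27a (0.69, SE 0.21, adjusted p = 0.0431) also rose. Canx, which encodes the endoplasmic reticulum chaperone calnexin, fell from 590, 631 and 562 CPM to 437, 391 and 316 CPM (log2 difference -0.64, SE 0.13, adjusted p = 0.0116). Hax1 and Clpb, mitochondrial proteins that are mutated in inherited neutropenia, fell by 0.59 (SE 0.16, adjusted p = 0.0304) and by 0.55 (SE 0.16, adjusted p = 0.0342) on the log2 scale. Calr, the chaperone calreticulin and the most abundant gene of the list, differed by -0.49 (SE 0.19, adjusted p = 0.0857). Ctsc, the cathepsin that activates the serine proteases, was at 58.8 ± 16.6 CPM with vehicle and 66.1 ± 7.59 CPM with AG636 (n = 3 each; 0.17, SE 0.20, adjusted p = 0.552). Leaving out single mice gave 0 (without AG636 mouse 1) to 4 higher and 1 (without vehicle mouse 3 or AG636 mouse 3) to 3 lower.

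Among 17 other serpins, cystatins and stefins, 13 were tested, 4 rose and 0 fell, 4 calls in 13 beside 21.3% of all genes tested. Their median log2 difference was 0.54. Cst3, which encodes the secreted cystatin C and was the most abundant of them, was measured at 216, 209 and 267 CPM with vehicle and at 375, 311 and 370.0 CPM with AG636, and it rose by 0.61 (SE 0.13, adjusted p = 0.0138 by edgeR). Its log2 difference was the same as that of Serpinb1a to 2 decimals, but with a smaller spread among mice. Serpinb10 (0.82, SE 0.25, adjusted p = 0.0437), Cstb (0.54, SE 0.17, adjusted p = 0.0471) and Stfa1 (1.52, SE 0.48, adjusted p = 0.0482) rose as well. Stfa1 belongs to a family of near-identical stefins, so that its count is uncertain, and its values of 62.6, 168 and 155 CPM with vehicle overlapped those of 672, 166 and 271 CPM with AG636. Of 11 genes listed as cysteine cathepsins, 8 were tested, 2 rose and 0 fell, 2 calls in 8 beside 21.3% of all genes tested. Ctso rose by 1.05 (SE 0.27, adjusted p = 0.0234) and Ctss by 1.36 (SE 0.38, adjusted p = 0.0325). The most abundant of them, Ctsb, differed by 0.48 (SE 0.16, adjusted p = 0.0615). Calls in both lists rested on single mice: 0 inhibitors rose without vehicle mouse 2, AG636 mouse 1 or AG636 mouse 3, 1 without vehicle mouse 1 and 2 without vehicle mouse 3, and 0 cathepsins rose without vehicle mouse 2 or AG636 mouse 3 and 1 without vehicle mouse 1.

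Of 19 genes listed as transcriptional regulators of myeloid genes, 17 were tested, 3 rose and 1 fell, 4 calls in 17 beside 21.3% of all genes tested. Their median log2 difference was 0.50. Meis1, a homeobox partner of HOXA9 in leukemia, was measured at 160, 229 and 254 CPM with vehicle and at 395, 370 and 530 CPM with AG636, and it rose by 1.01 (SE 0.19, adjusted p = 0.00795 by edgeR). Id2 (1.38, SE 0.31, adjusted p = 0.0142) and Id1 (0.90, SE 0.24, adjusted p = 0.0249), which encode inhibitors of E-box factors, rose. The gene that fell was Cebpz (-0.54, SE 0.11, adjusted p = 0.0120), which despite its symbol is not a member of the C/EBP family. Myb, the most abundant, differed by 0.03 (SE 0.14, adjusted p = 0.878). The granulocyte regulators were chosen for mention after their values were seen. Cebpe, needed for the passage beyond the promyelocyte, was measured at 14.8, 40.5 and 49.1 CPM with vehicle and at 64.4, 15.1 and 55.5 CPM with AG636 (0.37, SE 0.50, adjusted p = 0.624), with the dips at vehicle mouse 1 and AG636 mouse 2 that the 8 genes show. Cebpa (0.50, SE 0.26, adjusted p = 0.188) and Gfi1 (0.82, SE 0.37, adjusted p = 0.133) were not called. Leaving out single mice gave 1 (without vehicle mouse 2) to 6 (without AG636 mouse 2) regulators higher, with 5 without vehicle mouse 3, and 0 lower without AG636 mouse 3.

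**Figure D4:**
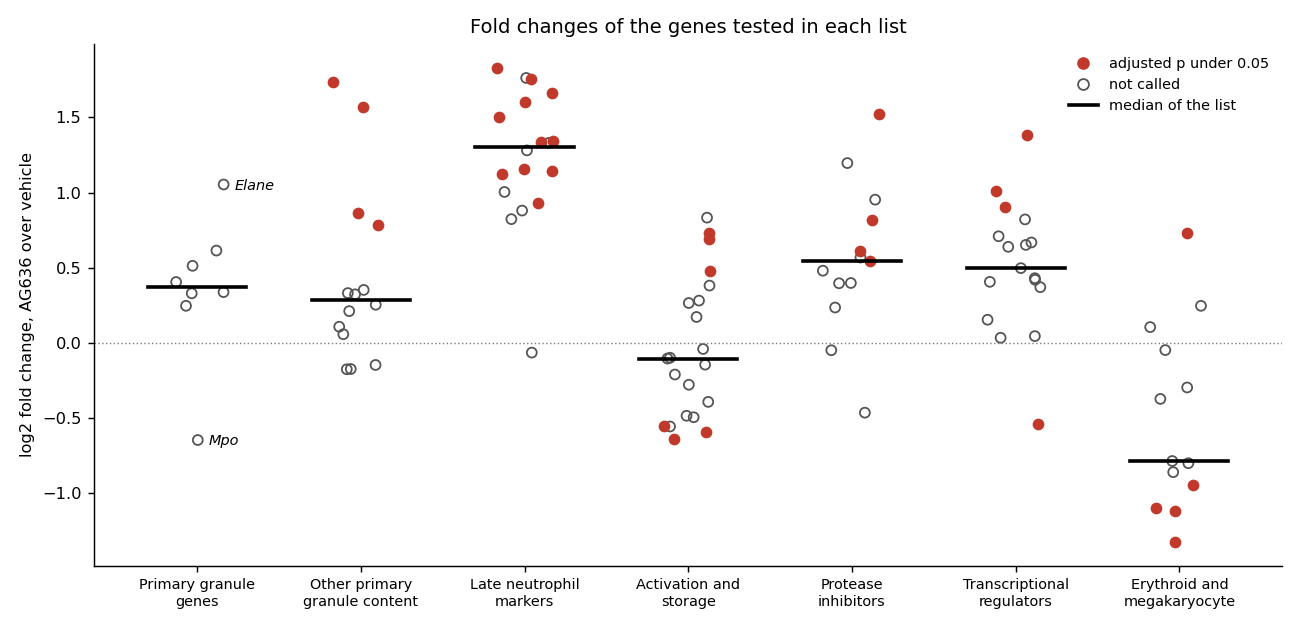
Log2 fold change, AG636 over vehicle (vertical axis), of each gene tested in 7 lists, filled where the adjusted p was under 0.05, with a bar at the median of each list and small sideways offsets only to separate points. None of the 8 primary granule genes is filled and their median is 0.37, with Elane at the top and Mpo at the bottom, while 11 of 18 late neutrophil markers are filled and their median is 1.31. Over all genes tested, 21.3% had an adjusted p under 0.05.

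Markers of the following neutrophil stages were read beside the 8 genes. Of 18 late neutrophil genes, all tested, 11 rose and 0 fell, beside 10.3% of all genes tested higher and 11.0% lower. Their median log2 difference was 1.31. Their summed level was 1160, 2314 and 2620 CPM with vehicle and 6451, 3441 and 3245 CPM with AG636, without overlap. Most of this sum in every mouse came from S100a8 and S100a9, and S100a8 alone overlapped between the groups. Of single genes tested, 20.5% were higher without overlap. Ngp (1.67, SE 0.22, adjusted p = 0.00271 by edgeR), Chil3 (1.83, SE 0.25, adjusted p = 0.00298) and the chemokine receptor gene Cxcr2 (1.12, SE 0.17, adjusted p = 0.00408) had the lowest adjusted p of the list. The most abundant were S100a8 (1.005, SE 0.39, adjusted p = 0.0872) and S100a9 (1.14, SE 0.32, adjusted p = 0.0305), which encode calprotectin. Without vehicle mouse 1 or 2, 7 and 6 genes of the list rose. In AG636 mouse 2, Ngp was at 317 CPM and Chil3 at 79.2 CPM, above every vehicle mouse, whereas Mpo and Ctsg were at their lowest of the 6 mice there. Elane, Prtn3, Ms4a3, Nkg7, Serpinb1a and Cst7 were instead at their lowest of the 6 mice in vehicle mouse 1. The late markers did not all behave alike in AG636 mouse 2. There S100a8 (1328 CPM), Hp (56.9 CPM), Fcnb (7.01 CPM) and Csf3r (5.57 CPM) were not above every vehicle mouse, while the rest of the list was. These genes, Lcn2 and Wfdc21 were lowest of the AG636 mice there, like the 8 genes. The low sum of vehicle mouse 1 was seen in both sets. In AG636 mouse 2 the late neutrophil sum was close to that of AG636 mouse 3, whereas the sums of other primary granule content (2396 CPM against 3398 and 3432), of regulators (1652 against 1986 and 2256) and of granulocyte-monocyte progenitor markers (1014 against 1392 and 1502) were lowest there, as for the 8 genes.

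Of 12 markers of granulocyte-monocyte progenitors 11 were tested, 5 rose and 0 fell (median log2 difference 0.83), beside 10.3% of all genes tested higher and 11.0% lower. Among those that rose were Cd33 (1.77, SE 0.34, adjusted p = 0.00906) and Csf2rb (0.83, SE 0.20, adjusted p = 0.0180, both by edgeR). Hdc, among the most abundant, differed by 0.46 (SE 0.28, adjusted p = 0.261), and Kit by 0.15 (SE 0.17, adjusted p = 0.550). The summed level of the 12 markers was 556 to 893 CPM with vehicle and 1014 to 1502 CPM with AG636 without overlap, beside 20.5% of single genes tested higher without overlap. Without vehicle mouse 1, AG636 mouse 1 or AG636 mouse 3 there were 3 calls. Mpo and Elane are themselves classic genes of this stage.

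Markers of other cells that the sort could hold were present at various levels. Of 16 monocyte and macrophage markers, 11 were tested and 2 rose, Itgam and C1qb (1.90, SE 0.48, adjusted p = 0.0229 by edgeR). These were 2 calls in 11, beside 21.3% of all genes tested. The monocyte and macrophage markers summed to 131 to 244 CPM with vehicle and 255 to 363 CPM with AG636. The most abundant of them, Ms4a6c, differed by 0.91 (SE 0.30, adjusted p = 0.0566). The monocyte calls numbered 0 without vehicle mouse 2 or AG636 mouse 3, and 1 without vehicle mouse 1 or AG636 mouse 1. Of 14 T and NK cell markers only 3 had enough counts to test and 0 were called. Their sum was 51.3 to 70.5 CPM with vehicle and 62.2 to 104 CPM with AG636, most of it from Lat and Ccl5, while Cd3e and Cd3g had 6 counts each and Ncr1 8 in all 6 libraries, beside 10811 for Nkg7 and 1322 for Cst7. Of 10 B cell markers 3 were tested and 0 called, and the list summed to 18.5 to 33.5 CPM with vehicle and 33.6 to 53.0 CPM with AG636, chiefly from Ighm and Cd79b. The 12 mast cell, basophil and eosinophil markers, of which Cma1 had 0 counts, summed to 711 to 1205 CPM and 901 to 1760 CPM. Of the 10 tested, 3 rose and 1 fell, beside 21.3% of all genes tested called in either direction. Gata2 (0.75, SE 0.15, adjusted p = 0.00896), Cpa3 (0.96, SE 0.29, adjusted p = 0.0423) and Il5ra (1.42, SE 0.39, adjusted p = 0.0284) rose. Epx, which encodes eosinophil peroxidase, fell by 2.27 (SE 0.59, adjusted p = 0.0248), a call lost without vehicle mouse 2 or 3 or AG636 mouse 1 or 3, with DESeq2 and with a filter of at least 10 counts in every sample. Without vehicle mouse 1, 2 or 3 or AG636 mouse 3, the genes of this list that rose numbered 1, as they did with DESeq2.

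Of 13 erythroid and megakaryocyte markers, all tested, 4 fell and 1 rose with AG636, beside 11.0% of all genes tested lower and 10.3% higher. Their median log2 difference was -0.79. The transferrin receptor gene Tfrc fell by 1.32 (SE 0.28, adjusted p = 0.0125 by edgeR) and the erythroid factor gene Klf1 by 1.10 (SE 0.28, adjusted p = 0.0238), and Itga2b rose by 0.73 (SE 0.21, adjusted p = 0.0346). Without AG636 mouse 1 or 3 only 1 gene of the list fell, and without vehicle mouse 1 or 2 only 2 did. Itga2b was not called without vehicle mouse 1 or 3 or AG636 mouse 1 or 3. The globin genes were the most abundant, with Hbb-bs at 967 ± 546 CPM with vehicle and 1041 ± 168 CPM with AG636 (n = 3 each; 0.11, SE 0.33, adjusted p = 0.842). The globin Hba-a2 (-0.86, SE 0.37, adjusted p = 0.117) has a near-identical copy, Hba-a1, and its count is uncertain. The sum of the list was 7124, 5153 and 3240 CPM with vehicle and 4017, 5294 and 4007 CPM with AG636. It was highest of each group in the mice where the primary granule genes were lowest, vehicle mouse 1 and AG636 mouse 2. The part of these other cell markers in the levels of the 8 genes was not tested.

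The genes outside the set whose profile over the 6 samples was most like the mean profile of the 8 were Sox13, at a root mean square difference of 0.10 on the log2 scale, Tmem50b (0.13), Dtx4 (0.13), Pard6g (0.14) and Renbp (0.14). They were picked as the nearest of all other genes tested, and a search that wide over 6 samples can give close profiles by itself. Sox13 lay nearer than any of the 8 did. These are lowly expressed beside most of the 8, from 5.58 CPM for Renbp to 31.7 CPM for Tmem50b with vehicle. None of the 5 was called, with log2 differences from 0.16 to 0.38 and adjusted p from 0.470 to 0.781 by edgeR.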

How the data were processed

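Sorted I1DN cells of 3 vehicle-treated and 3 AG636-treated mice were profiled with QuantSeq 3′ libraries, and groups and replicate numbers were taken from the submitters' labels. The authors deposited raw read counts per gene, and their processing notes and methods name cutadapt for trimming, HISAT2 for alignment to mm10 and featureCounts of the Subread package for counting. The tool versions differ between these sources, and the annotation release, the use of strand and the handling of multi-mapping reads are not given in the sources used here. GENCODE M21 gave symbols to 54723 of 54838 identifiers, and 98.7% of these had the same coordinates there. No molecular identifiers were described.

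Tests used edgeR 4.0.16 in R 4.3.3 (filterByExpr, minimum count 10 and minimum total 15, TMM, quasi-likelihood test, Benjamini-Hochberg adjustment over 11092 genes, threshold 0.05). CPM use TMM-scaled library sizes. Single genes were also compared by an exact two-sided permutation test of 3 against 3. The standard error is the log2 fold change divided by the square root of F. limma-voom (limma 3.58.1), DESeq2 1.42.0, other scalings, filters, thresholds, a replicate block and leaving out each mouse were alternatives. The fit was tested on simulated data. Replicates differed by more than sampling noise (chi-square per degree of freedom 6.67 to 15.9).

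The 8 genes and all lists were chosen with earlier results of these data known. Genes named beside the 8 were, for each pathway list, up to 6 called genes with the lowest adjusted p and the most abundant gene, for each marker list up to 3 called genes and the 2 most abundant, plus Kit, Itgam and the 5 genes nearest in profile. Exceptions are marked in the text, and some genes that this rule names are not reported here. Vamp7 matched no symbol. No gene set test was run.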

Additional observations from a re-analysis of the deposited data

How the results depend on the processing

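The 8 primary granule genes were recomputed under 14 alternatives each. Of the 112 values, 99 kept their direction and their side of the threshold, 10 passed it and 3 reversed, and the cause was not tested in either case. With no filter on low counts, 1 of the 8 genes was called lower and 4 higher, and DESeq2 called 1 higher. Leaving out single mice gave 0 to 3 genes called higher and log2 differences of -0.061 to 0.77 for Prtn3, -0.12 to 0.69 for Ctsg and -0.0034 to 0.68 for Cst7, the negative values arising without AG636 mouse 1 for the first pair and without vehicle mouse 1 for Cst7. Mpo stayed lower (-0.97 to -0.28) and Elane higher (0.30 to 1.47) under all 14. Over all genes tested, leaving out single mice gave 452 to 1298 genes lower and 399 to 1074 higher, and an adjusted p under 0.01 left 325 and 231. With library size alone as the scaling, calls split as 61.9% higher in place of 48.4%, and the median of all genes moved by 0.09. Of 416 counts over the lists, 85 changed by more than 1.5 times. Replicate numbers did not pair the mice (correlations of same-numbered deviations -0.06, -0.18 and 0.22), and with the replicate block 1046 genes were lower, 914 higher and 0 of the 8 called. Depth sets the floor at 0.392 to 0.637 CPM, below the level of each of the 8 genes in every sample.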
